A study of Mus musculus with 6 samples.

Results

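Toll-like receptors sense conserved molecules of microbes. The report covers 10 genes, chosen by symbol from the 16775 genes of the count table, namely those of 9 mouse Toll-like receptors and Cd14. They were divided by the place where the proteins meet their ligands. Tlr1, Tlr2, Tlr4, Tlr6 and the co-receptor gene Cd14 formed a surface class of 5, and Tlr3, Tlr7, Tlr8, Tlr9 and Tlr13 an endosomal class of 5. RNA-seq had been done on osteoclasts, large cells with many nuclei whose role is bone resorption, grown from wild-type mouse bone marrow macrophages. The verapamil-treated group had 3 libraries, and the control group, for which no vehicle is named, had 2 (replicates 1 and 3, with control replicate 2 not analysed here). Cells of both groups were cultured with 30 ng/ml M-CSF, 50 ng/ml RANKL and 10% serum, and their titles give day 5. The labels give no dose, start or duration for verapamil, a blocker of L-type calcium channels, and they do not say whether replicates came from separate mice or cultures. P-values therefore measure the spread between these libraries, which may be technical.

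Toll-like receptors on the plasma membrane bind mainly lipids and proteins of the microbial surface, whereas those in endosomes bind nucleic acids. TLR2 pairs with TLR1 or TLR6 to sense bacterial lipopeptides, and TLR4 senses lipopolysaccharide with MD-2 after CD14 has handed the ligand over. Of the endosomal receptors, TLR3 binds double-stranded RNA, TLR7 and TLR8 single-stranded RNA and its breakdown products, TLR9 unmethylated CpG DNA, and TLR13, which humans lack, a stretch of bacterial ribosomal RNA. Ligands of several of these receptors are known to block the commitment of early precursors to osteoclasts and to prolong the life of mature ones.

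Libraries held 20202340 to 21494523 estimated counts. Of 12619 genes tested with edgeR, 3200 changed, which is 25.4%, with 9.99% higher and 15.4% lower in verapamil-treated cells. The controls differed from each other more than the verapamil libraries did, with a Pearson correlation across genes of log2 CPM (counts scaled to a common library total) of 0.9718 between the controls and 0.9913 to 0.9929 between verapamil libraries. The number of changed genes was 1485, 1565 and 1460 without verapamil replicates 1, 2 and 3, and 4533 and 7808 without control replicates 1 and 3. Each fit without a control kept only 1 control, so its spread between libraries came from the verapamil libraries alone. Osteoclast markers, present in every library, fell for 7 of 10 genes and rose for 1. Their summed level was 3304 to 3454 CPM in verapamil libraries, against 7025 to 7703 CPM in controls.

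All 10 receptor genes passed the filter on low counts, with 159 to 7723 counts in each library. Verapamil-treated osteoclasts had lower Tlr1 and Cd14 and higher Tlr7 and Tlr13. In the surface class 2 of 5 genes were lower and 0 higher, and in the endosomal class 2 of 5 were higher and 0 lower, at an adjusted p under 0.05. That makes 4 of 10 genes, or 40%, beside 25.4% of all genes tested. Without verapamil replicate 1 no endosomal gene passed, and without verapamil replicate 2 or 3 only Tlr7 did. The median log2 fold change, verapamil over control, was -0.21 in the surface class, 0.86 in the endosomal class and -0.01 over all genes. The endosomal median is the value of Tlr9, and leaving out control replicate 1 or 3 gave 0.22 or 1.13. The surface median was -0.12 without verapamil replicate 1, -0.34 without verapamil replicate 3, -0.33 with upper quartile factors and -0.13 with the length trend removed. In these bulk samples, fewer cells of a type and less RNA per cell cannot be told apart.

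**Figure D1:**
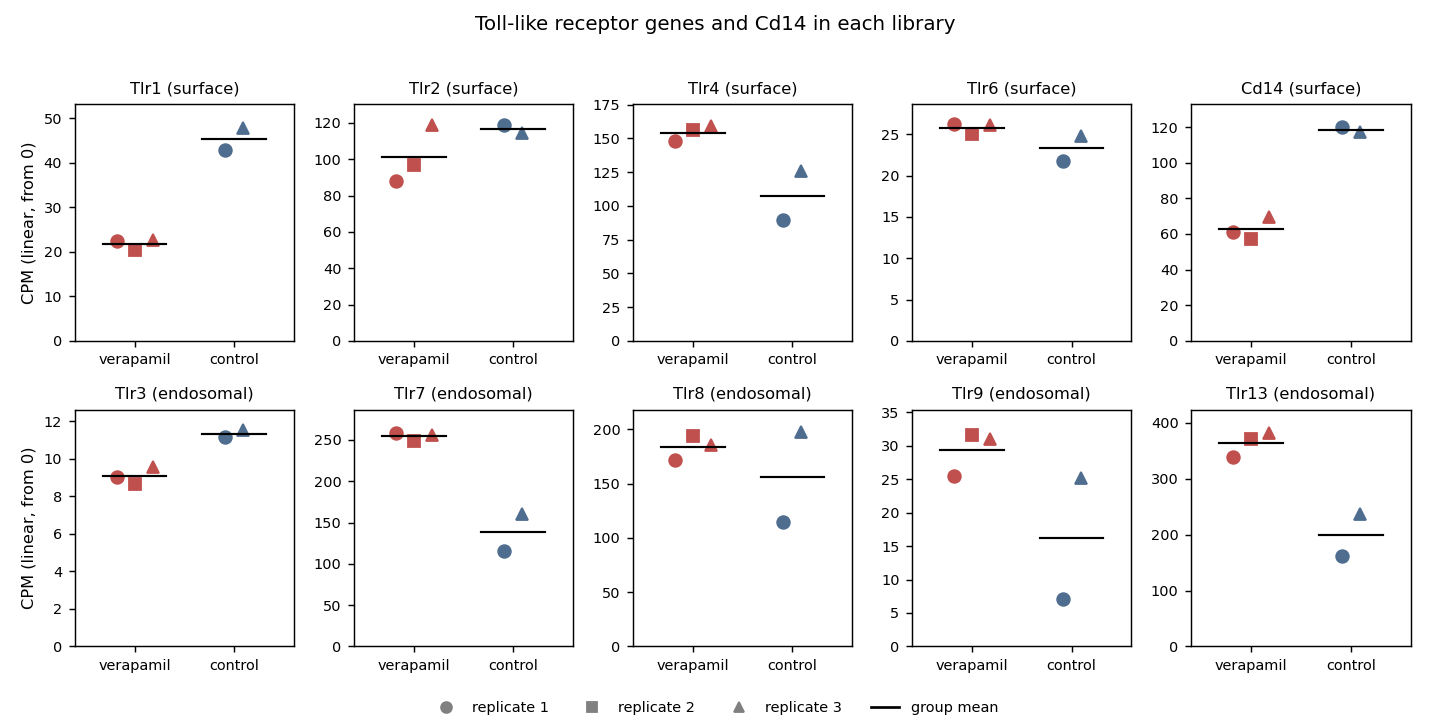
CPM (y axis, linear and starting at 0) of each of the 10 genes in the verapamil libraries and the control libraries, with 1 marker per library, its shape giving the replicate, and a line at the group mean. Verapamil libraries lie below both controls for Tlr1, Cd14 and Tlr3 and above both for Tlr4, Tlr6, Tlr7, Tlr9 and Tlr13, and the groups overlap for Tlr2 and Tlr8.

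Tlr1 encodes the partner with which TLR2 recognises triacylated lipopeptides. It was found at 22.5, 20.4 and 22.8 CPM in verapamil replicates 1 to 3, against 42.8 and 47.9 CPM in control replicates 1 and 3. All 3 verapamil libraries lay below both controls, at about the same level as each other. Tlr1 averaged 21.9 ± 1.29 CPM with verapamil (SD, n = 3) and 45.4 ± 3.58 CPM in controls (SD, n = 2), a log2 fold change of -1.05 (SE 0.114, 95% interval -1.33 to -0.78, edgeR adjusted p = 0.00196).

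Tlr6, whose product pairs with TLR2 for diacylated lipopeptides, had 26.3, 25.1 and 26.1 CPM in verapamil libraries, against 21.8 and 24.9 CPM in controls. These values lay close together, with the verapamil libraries just above the controls. The log2 fold change was 0.15 (SE 0.112, 95% interval -0.12 to 0.42, edgeR adjusted p = 0.353), and it did not pass the test. Leaving out control replicate 1 or 3 gave 0.06 or 0.25, and upper quartile factors gave 0.03. Tlr2 (Entrez 24088, chromosome 3, 83836272 to 83841824 of GRCm38) encodes the receptor that both partners share. Its values were 88.2, 96.8 and 118.6 CPM in verapamil libraries, against 119.1 and 114.7 CPM in controls. Verapamil replicate 3 reached the level of the controls, so the groups overlapped, and Tlr2 was not called (log2 -0.21, SE 0.143, 95% interval -0.55 to 0.14, edgeR adjusted p = 0.313). Its log2 fold change was -0.12 without verapamil replicate 1, -0.34 without verapamil replicate 3, -0.33 with upper quartile factors and -0.13 with the length trend removed.

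The ratio of the partner genes Tlr1 and Tlr6 was lower in each verapamil library than in either control. Tlr1 had 0.854, 0.814 and 0.872 reads per read of Tlr6 in verapamil libraries, against 1.97 and 1.93 in controls. Within a library, scaling cannot move this ratio, and the gap between groups was many times the spread in either. It is 1 of 9 ratios between members or with the MD-2 gene Ly96 that were computed. An exact two-sided permutation test over 3 against 2 libraries cannot go below p = 0.2, which it gave here (0.257 after Benjamini-Hochberg adjustment over the 9 ratios). Tlr1 per read of Tlr2 was 0.192 to 0.255 in verapamil libraries and 0.360 to 0.418 in controls, with the same exact p = 0.2.

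Tlr1 and Tlr6 lie on the minus strand of chromosome 5 of GRCm38, with 19.49 kb between Tlr1 (64924680 to 64933600, Entrez 21897) and Tlr6 (64953092 to 64970942, Entrez 21899). Their coding sequences hold long identical runs, the longest of 229 bases (positions 1468 to 1696 of 2388 in Tlr1, and 1507 to 1735 of 2421 in Tlr6). Of all 50-base windows of the Tlr1 transcript, 15.3% also occurred in Tlr6, and 8.85% of 100-base windows did. For the Tlr6 transcript the shares found elsewhere were 12.6% and 7.24%. Reads from such windows could be counted for either gene, and how the authors' counting assigned them is not given, so the split between the pair is uncertain to that extent. The longest run is shown with 20 bases on either side, because a read inside it has no letter that tells the genes apart. Capitals mark the bases that Tlr6 shares without a break.

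Tlr1 coding strand, chr5:64925517-64925785, minus strand: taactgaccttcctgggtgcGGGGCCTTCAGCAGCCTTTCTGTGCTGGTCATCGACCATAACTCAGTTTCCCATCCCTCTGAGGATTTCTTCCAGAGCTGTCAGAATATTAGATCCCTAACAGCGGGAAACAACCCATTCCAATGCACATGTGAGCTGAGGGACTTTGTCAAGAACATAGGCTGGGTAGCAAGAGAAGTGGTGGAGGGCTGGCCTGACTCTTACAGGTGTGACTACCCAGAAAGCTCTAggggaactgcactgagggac

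Cd14 encodes the co-receptor that passes lipopolysaccharide to TLR4 and MD-2. Its level was 61.2, 56.9 and 69.7 CPM in verapamil libraries, against 119.9 and 117.1 CPM in controls. The verapamil libraries formed a separate, lower group, and the controls were nearly equal. Cd14 averaged 62.6 ± 6.51 CPM with verapamil (SD, n = 3) and 118.5 ± 1.99 CPM in controls (SD, n = 2), a log2 fold change of -0.92 (SE 0.115, 95% interval -1.20 to -0.64, edgeR adjusted p = 0.00315). Cd14 (Entrez 12475) lies on chromosome 18 at 36725064 to 36726815 of GRCm38. Tlr1 and Cd14 passed the test under each of the 12 alternative settings tried.

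Tlr4 (Entrez 21898, chromosome 4, 66827551 to 66846581), the lipopolysaccharide receptor itself, had 147.8, 156.2 and 158.9 CPM in verapamil libraries, against 89.3 and 125.7 CPM in controls. All verapamil libraries were above both controls, which differed by 1.41-fold from each other. With a log2 fold change of 0.52 (SE 0.158, 95% interval 0.14 to 0.90) Tlr4 missed the threshold by little (edgeR adjusted p = 0.0571). Leaving out control replicate 1 or 3 gave log2 fold changes of 0.30 and 0.79, with only 1 control left to compare. Tlr4 passed the threshold with RLE factors, DESeq2 and removal of the length trend (adjusted p = 0.0497, 0.0149 and 0.0246). It also passed with the replicate block (adjusted p = 0.0359), which fits more terms to fewer libraries. Cd14 per read of Tlr4 was 0.414, 0.364 and 0.439 in verapamil libraries, against 1.34 and 0.931 in controls, so the co-receptor was less abundant relative to its receptor in every verapamil library (exact permutation p = 0.2, the smallest possible).

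Ly96, which encodes MD-2, averaged 13.1 ± 1.33 CPM with verapamil (n = 3) and 14.9 ± 4.54 CPM in controls (n = 2), and was not called (log2 -0.19, SE 0.207, edgeR adjusted p = 0.529). Its direction rested on the controls, with a log2 fold change of 0.17 without control replicate 1 and -0.47 without control replicate 3. Removal of the length trend gave 0.18.

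**Figure D2:**
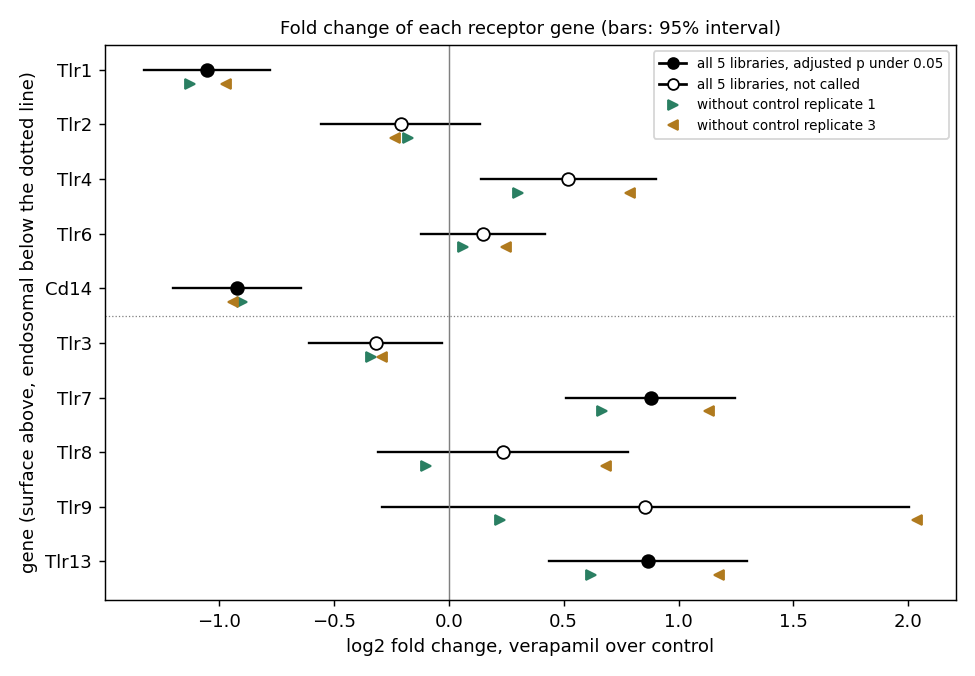
Log2 fold change, verapamil over control (x axis), of each gene (y axis) with all 5 libraries and its 95% interval, filled where the adjusted p was under 0.05, and without each control library (triangles). Tlr1 and Cd14 stay near -1 whichever control is left out, whereas Tlr9 ranges from 0.22 to 2.04 and Tlr8 from -0.10 to 0.69.

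Tlr7 (Entrez 170743, X chromosome, 167303380 to 167330574 of GRCm38), a sensor of guanosine and uridine-rich single-stranded RNA, was found at 258.2, 249.3 and 256.5 CPM in verapamil libraries, against 116.1 and 160.9 CPM in controls. The verapamil libraries were nearly equal, and all lay well above both controls. Tlr7 averaged 254.6 ± 4.74 CPM with verapamil (SD, n = 3) and 138.5 ± 31.7 CPM in controls (SD, n = 2), a log2 fold change of 0.88 (SE 0.152, 95% interval 0.51 to 1.25, edgeR adjusted p = 0.00969). The call was lost without verapamil replicate 1 (log2 0.87, adjusted p = 0.0509). Leaving out control replicate 1 gave a log2 fold change of 0.67, and leaving out control replicate 3 gave 1.13.

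Tlr13 (Entrez 279572, X chromosome, 106143275 to 106160493), the receptor for bacterial ribosomal RNA, had the highest level per kb of exon in verapamil libraries. It was found at 338.4, 370.0 and 380.7 CPM in verapamil libraries, against 160.9 and 237.4 CPM in controls. Again all 3 verapamil libraries were above both controls. Tlr13 averaged 363.0 ± 22.0 CPM with verapamil (SD, n = 3) and 199.1 ± 54.1 CPM in controls (SD, n = 2), a log2 fold change of 0.87 (SE 0.178, 95% interval 0.44 to 1.30, edgeR adjusted p = 0.0169). It no longer passed when verapamil replicate 1, 2 or 3 was left out (adjusted p = 0.0591, 0.0654 and 0.0723), with log2 fold changes of 0.91, 0.85 and 0.83.

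Tlr13 had 1.31, 1.48 and 1.48 reads per read of Tlr7 in verapamil libraries, and 1.38 and 1.47 in controls, so the groups overlapped. Tlr8 (Entrez 170744, X chromosome, 167241123 to 167264329), another sensor of RNA breakdown products, lies 39.05 kb from Tlr7. Tlr7 per read of Tlr8 was 1.29 to 1.51 in verapamil libraries and 0.814 to 1.02 in controls (exact permutation p = 0.2, the smallest possible).

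Tlr8 had 171.5, 193.7 and 185.9 CPM in verapamil libraries, against 114.3 and 197.6 CPM in controls. Control replicate 3 was above every verapamil library and control replicate 1 below all of them, so the groups overlapped. The log2 fold change of 0.24 (SE 0.226, 95% interval -0.31 to 0.78, edgeR adjusted p = 0.461) turned to -0.10 without control replicate 1. Without control replicate 3 it was 0.69.

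Tlr9 (Entrez 81897, chromosome 9, 106222598 to 106226876), the receptor for CpG DNA, showed the largest gap between the controls among the 10 genes. It had 25.5, 31.5 and 31.1 CPM in verapamil libraries, against 7.15 CPM in control replicate 1 and 25.2 CPM in control replicate 3. The verapamil libraries were all higher, but verapamil replicate 1 exceeded control replicate 3 by very little. The controls stood 3.53-fold apart for Tlr9, and 0.61% of all tested genes had a larger gap. Tlr9 was not called (log2 0.86, SE 0.474, 95% interval -0.29 to 2.00, edgeR adjusted p = 0.223), with 0.22 without control replicate 1 (adjusted p = 0.231) and 2.04 without control replicate 3 (adjusted p = 1.82e-05).

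Tlr3 (Entrez 142980, chromosome 8, 45395665 to 45411075), the receptor for double-stranded RNA, had the lowest mean level per kb of exon in both groups. It was found at 9.05, 8.68 and 9.56 CPM in verapamil libraries, against 11.2 and 11.5 CPM in controls. Verapamil libraries were all lower than both controls, by a small margin. The log2 fold change of -0.32 (SE 0.120, 95% interval -0.61 to -0.03) did not pass the test (edgeR adjusted p = 0.102). It passed with upper quartile factors (log2 -0.44, adjusted p = 0.0443) and after removal of the length trend (log2 -0.37, adjusted p = 0.0385). The transcript Gm45542 on the other strand shares 7.32% of Tlr3's exon bases, so without strand information some reads could belong to it. The other 9 genes share no exon bases with another annotated gene.

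Control replicate 3 also exceeded control replicate 1 by 1.39-fold for Tlr7, 1.48-fold for Tlr13 and 1.73-fold for Tlr8. Larger gaps between the controls were found for 31.4%, 22.8% and 9.21% of all tested genes, and for 29.2% in the case of Tlr4. For Tlr1, Tlr2, Tlr6, Cd14 and Tlr3 the ratio of control replicate 3 to control replicate 1 was 0.963 to 1.14. What the controls' difference contributes to the endosomal values was not tested.

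Across the 10 genes, 8 had groups that did not overlap, 5 higher and 3 lower with verapamil. Over all tested genes 56.7% did not overlap, 27.7% higher and 29% lower.

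Reads of the surface class made up 30.1%, 29.4% and 31.4% of all reads of the 10 genes in verapamil libraries, against 49.0% and 40.5% in controls. The share was lower in each verapamil library than in either control, and the means of 30.3% ± 1.03 (SD, n = 3) and 44.7% ± 6.0 (SD, n = 2) differed by more than the spread in either group. Without Cd14 the share was 25.9% to 27.4% in verapamil libraries and 33.1% to 39.99% in controls. Counted per kb of exon, with Cd14, it was 33.3% to 36.3% in verapamil libraries and 48.4% to 58.5% in controls. The summed level of the endosomal class was 803 to 864 CPM in verapamil libraries and 410 to 633 CPM in controls. For the surface class the sums were 346 to 396 CPM in verapamil libraries and 393 to 430 CPM in controls, which overlap. Without Cd14 the surface sums were 285 to 326 CPM in verapamil libraries and 273 to 313 CPM in controls, which overlap too, with means of 303 and 293 CPM.

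**Figure D3:**
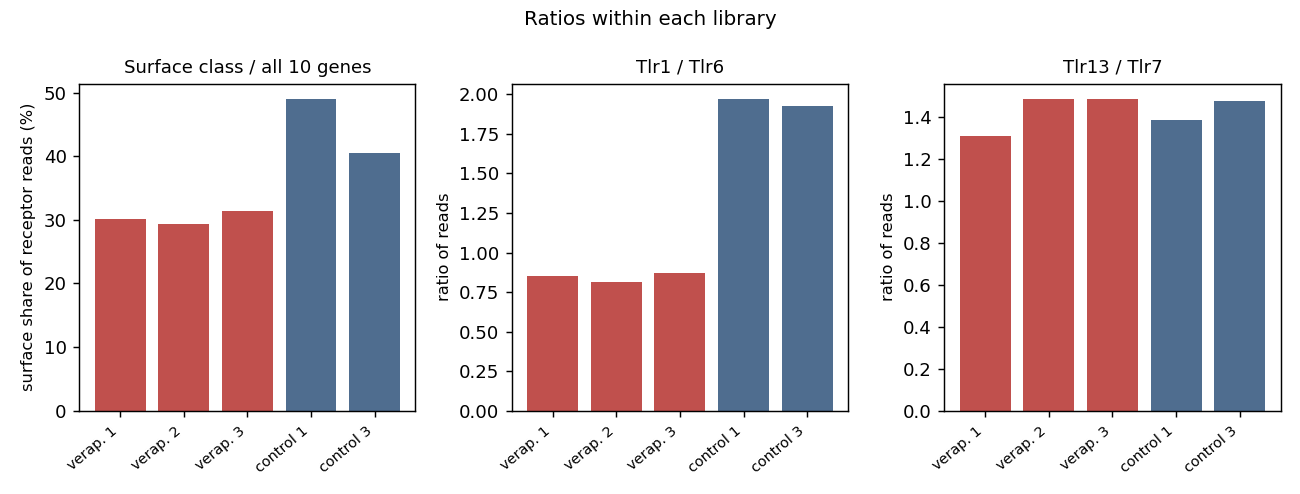
Bars, starting at 0, give 3 ratios within each library (x axis, verapamil replicates 1 to 3 and control replicates 1 and 3): the surface class as a percentage of the reads of all 10 genes, Tlr1 over Tlr6 reads, and Tlr13 over Tlr7 reads. The surface share is 29.4% to 31.4% in verapamil libraries and at least 40.5% in controls, Tlr1 over Tlr6 is below 1 in verapamil libraries and above 1.9 in controls, and Tlr13 over Tlr7 is 1.31 to 1.48 in all 5.

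Levels of different genes were compared as CPM per kb of exon. Their order depends on the length taken. For Tlr4 the joined exons cover 5556 bases and the main transcript 4077, and the order was not computed with transcript lengths. In verapamil libraries the order of mean level was Tlr13 (84.4), Tlr7 (62.4), Tlr8 (51.2), Cd14 (36.1), Tlr2 (33.6), Tlr4 (27.8), Tlr9 (8.44), Tlr6 (6.93), Tlr1 (6.54) and Tlr3 (1.75). Cd14 and Tlr2 overlapped over the 3 libraries, as did Tlr6 and Tlr1, and the other neighbours in that order did not. In controls Cd14 stood first at 68.4 ± 1.15 CPM per kb (SD, n = 2). There Tlr13 (46.3 ± 12.6), Tlr8 (43.5 ± 16.4), Tlr2 (38.8 ± 1.04) and Tlr7 (33.9 ± 7.76) could not be ranked beyond their spread, and Tlr4 (19.4 ± 4.64) and Tlr1 (13.6 ± 1.07) followed. Tlr6 (6.25 ± 0.587), Tlr9 (4.66 ± 3.68) and Tlr3 (2.18 ± 0.0517) came last in controls, where the Tlr9 libraries overlapped those of Tlr6 and of Tlr3. Cd14 thus held the fourth place with verapamil and the first in controls.

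Promoter sequences of GRCm38.p6 from RefSeq are described for 7 of the 10 genes, not including Cd14, Tlr4 and Tlr7. The 250 bases before each annotated start were searched on both strands for 5 motifs, and matches are descriptions, not sites of binding. GAGGAA, the core bound by PU.1, a factor of the macrophage and osteoclast lineage, was found before Tlr1, Tlr8, Tlr9 and Tlr13, that is in 4 of the 9 windows of the 7 genes, Tlr1 and Tlr6 having a pair of starts each, and in 23.3% of all 32851 such windows. The interferon-stimulated response element, searched as GAAA and GAAA with any 2 bases between, occurred in 2.98% of windows. It was found before the first annotated start of Tlr6, in a pair of overlapping matches. Both Tlr6 windows lie inside the gene, which spans 64953092 to 64970942, so neither covers its upstream end. The windows of Tlr3 and of the second start of Tlr1 also lie inside their genes. Those of Tlr2 and of the first start of Tlr1 lie partly inside. The PU.1 core of Tlr1, 23 to 18 bases before its first start, falls within the span given for Tlr1. TGANTCA, for AP-1, was found before Tlr9 (6.75% of windows), CACGTG before the second start of Tlr1 (6.02%) and the NF-kB motif, searched as GGGA and TTTCC with any 1 base between, before Tlr3 (0.356%). The windows of Tlr1 (first start), Tlr6 (first start) and Tlr13 are shown because Tlr1 fell, Tlr13 rose and Tlr6 was not called. Capitals mark the PU.1 core in Tlr1 and Tlr13 and the overlapping pair in Tlr6, which lies on the other strand.

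Tlr1 promoter, chr5:64933559-64933808, minus strand: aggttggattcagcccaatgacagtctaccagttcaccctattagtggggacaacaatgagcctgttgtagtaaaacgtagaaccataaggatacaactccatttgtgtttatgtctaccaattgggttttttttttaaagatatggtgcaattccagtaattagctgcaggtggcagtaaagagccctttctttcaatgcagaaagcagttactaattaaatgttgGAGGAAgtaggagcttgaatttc

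Tlr6 promoter, chr5:64959167-64959416, minus strand: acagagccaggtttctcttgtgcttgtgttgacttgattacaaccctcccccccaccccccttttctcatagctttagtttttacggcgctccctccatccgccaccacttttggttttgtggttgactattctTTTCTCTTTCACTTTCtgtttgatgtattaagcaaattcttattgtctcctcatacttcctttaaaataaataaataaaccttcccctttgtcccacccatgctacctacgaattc

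Tlr13 promoter, chrX:106143025-106143274, plus strand: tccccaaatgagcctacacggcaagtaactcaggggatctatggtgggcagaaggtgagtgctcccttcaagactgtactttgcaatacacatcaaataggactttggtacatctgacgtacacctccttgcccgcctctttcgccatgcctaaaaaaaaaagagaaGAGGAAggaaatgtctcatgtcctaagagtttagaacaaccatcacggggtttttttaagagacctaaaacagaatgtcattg

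The likeness of other genes to the called members was measured as the Euclidean distance between log2 CPM profiles centred over the 5 libraries, among 6301 genes of at least median expression. For Tlr1 the nearest were the cytidine deaminase gene Apobec3 (distance 0.139) and Gpr132 (0.142), a G protein-coupled receptor gene. For Cd14 they were Gpr132 (0.152) and Midn (0.159). Nearest to Tlr7 were the translation factor gene Eif4b (0.0855) and Flrt2 (0.0939), and nearest to Tlr13 were Arfgef2 (0.0531) and Tbc1d9 (0.0550). With 5 libraries in 2 groups, any gene with a like difference between groups comes near by this measure.

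Of other mouse Toll-like receptor genes in the table, Tlr5 had 7, 3 and 5 counts in verapamil libraries, against 24 and 96 in controls. It was lower with verapamil (log2 -3.35, SE 0.683, edgeR adjusted p = 0.0166), a call not kept when verapamil replicate 1, 2 or 3 was left out (adjusted p = 0.0601, 0.0617 and 0.0646). The log2 fold change was -2.08 without control replicate 3. Tlr12 had at most 3 counts in a library and was not tested.

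The counts in the pathway lists that follow stand beside 9.99% higher and 15.4% lower over all genes tested. Among the genes that carry the signal, none of the 5 tested adaptors was called, with a median log2 fold change of 0.35. Without control replicate 1 the median was 0.14, with 1 adaptor higher and 1 lower, and without control replicate 3 it was 0.38, with 3 higher and 1 lower. With upper quartile factors the median was 0.23 and 1 was lower, and with DESeq2, the replicate block or the length trend removed 1 was higher. Myd88, the adaptor of all the receptors here except TLR3, averaged 45.9 ± 1.85 CPM with verapamil (n = 3) and 57.0 ± 1.82 CPM in controls (n = 2) (log2 -0.31, SE 0.0987, edgeR adjusted p = 0.0646). It passed without control replicate 1 or 3 (adjusted p = 0.0396 and 0.00997) and with upper quartile factors (adjusted p = 0.031), and Acaa1a overlaps 11.3% of its exon bases. Ticam1, which encodes TRIF, the adaptor of TLR3 and of TLR4 in endosomes, had a log2 fold change of 0.35 (adjusted p = 0.0946). It passed without control replicate 1 (log2 0.49, adjusted p = 0.00689), but not without control replicate 3 (log2 0.23, adjusted p = 0.1), and it passed after removal of the length trend (adjusted p = 0.0124).

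Of 18 kinases and ubiquitin ligases, 1 was higher and 1 lower, with a median of 0.20. Peli2, a ligase of the Pellino family with 9.56% of exon bases overlapped by Gm6498, rose by 0.63 on the log2 scale (SE 0.160, edgeR adjusted p = 0.0347). Ube2n, the ubiquitin-conjugating partner of TRAF6, fell by 0.50 (SE 0.120, adjusted p = 0.0286). Neither passed when a verapamil library was left out. For replicates 1, 2 and 3 left out, the adjusted p was 0.0867, 0.129 and 0.129 for Peli2, and 0.0992, 0.127 and 0.128 for Ube2n. Without control replicate 3, which leaves 1 control, 13 of the 18 were higher and 1 lower, with a median of 0.42. Without control replicate 1 the median was 0.12, with 3 higher and 2 lower, and with upper quartile factors it was 0.08.

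Genes for chaperones, traffic and processing of the receptors were higher in 6 of 17 cases and lower in 1, with a median of 0.33. Slc15a3, a lysosomal histidine and peptide transporter, averaged 284.6 ± 9.22 CPM with verapamil (n = 3) and 160.1 ± 3.94 CPM in controls (n = 2) (log2 0.83, SE 0.0918, edgeR adjusted p = 0.00208), and Tmem132a overlaps 28.1% of its exon bases. Rab7b, a GTPase of late endosomes, rose by 0.69 (SE 0.124, adjusted p = 0.0106), and did not pass without verapamil replicate 3 (adjusted p = 0.0604). Unc93b1 encodes the chaperone that carries the nucleic acid-sensing receptors from the endoplasmic reticulum to endosomes. It was the member that fell, with 468.5 ± 4.20 CPM with verapamil and 610.8 ± 82.6 CPM in controls (log2 -0.38, SE 0.110, adjusted p = 0.0493). It did not pass when verapamil replicate 1, 2 or 3 was left out (adjusted p = 0.163, 0.185 and 0.186), with RLE factors (0.0565), with no filter on low counts (0.0626) and with the replicate block (0.181). The log2 fold change of Unc93b1 was -0.23 or -0.51 with control replicate 1 or 3 left out. In the whole list 2 genes were higher under upper quartile factors, with a median of 0.20, 3 with the replicate block, 1 or 2 without a verapamil library, and 10 without control replicate 1 or 3.

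Among 7 co-receptors of lipopolysaccharide and other lipids, 2 were higher and 1 lower, with a median of -0.13. The median was above 0 with control replicate 1 left out (0.17, 2 genes higher and 3 lower), with control replicate 3 left out (0.11, 3 higher and 2 lower) and with the length trend removed (0.18). With any 1 verapamil library left out 1 gene was higher and 0 lower. Itgb2, the integrin chain of complement receptor 3, rose by 0.74 (SE 0.106, edgeR adjusted p = 0.00493). Rftn1, a lipid raft protein gene, rose by 0.39 (SE 0.0902, adjusted p = 0.0256), but did not pass with verapamil replicate 1, 2 or 3 left out (adjusted p = 0.114, 0.149 and 0.137), with upper quartile factors (0.0869) and with the replicate block (0.175). Cd180 encodes a receptor relative on the cell surface, and Ly86 encodes MD-1, the partner of the CD180 protein. Cd180 averaged 174.0 ± 11.3 CPM with verapamil and 116.2 ± 45.5 CPM in controls and was not called (log2 0.58, SE 0.235, adjusted p = 0.120), with 0.23 without control replicate 1 and 1.05 without control replicate 3 (adjusted p = 0.0666 and 2.96e-05). It passed with DESeq2 and with the replicate block (adjusted p = 0.0456 and 0.0125). Ly86 fell by 0.66 (SE 0.142, adjusted p = 0.0200), with adjusted p = 0.0888, 0.0871 and 0.0824 without verapamil replicates 1, 2 and 3, and log2 fold changes of -0.42 to -0.85 over the left-out libraries.

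Of 10 transcription factors downstream of the receptors 4 were lower and 0 higher. Irf7, which drives type I interferon genes after TLR7 and TLR9 signalling and is itself induced by interferon, had 4.84 ± 0.998 CPM with verapamil (n = 3) and 31.0 ± 4.87 CPM in controls (n = 2) (log2 -2.68, SE 0.196, edgeR adjusted p = 0.000669). Relb, a subunit of the alternative NF-kB pathway, fell by 0.95 (SE 0.119, adjusted p = 0.00308). The median of the list was -0.22, with -0.09 without control replicate 1 and -0.34 with upper quartile factors. Without control replicate 3 the counts were 6 lower and 2 higher.

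Of 15 negative regulators 3 were higher and 2 lower, beside 9.99% and 15.4% of all genes tested, with a median of 0.16. The median was 0.05 without control replicate 1, 0.05 with upper quartile factors and 0.01 with the length trend removed. Without control replicate 3 the counts were 8 and 4, and without control replicate 1 they were 5 and 2. Atf3, a repressor of inflammatory genes, and Tnip1, a partner of the deubiquitinase A20, rose by 0.74 and 0.67 (edgeR adjusted p = 0.00395 and 0.00435). Nfkbia, which encodes the NF-kB inhibitor that NF-kB induces, fell by 1.18 (SE 0.132, adjusted p = 0.00222). Il1rl1, the receptor of interleukin 33, fell by 1.79, with 0.949 ± 0.117 CPM with verapamil and 3.29 ± 0.654 CPM in controls (adjusted p = 0.00398).

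Of 20 target genes of the receptors in macrophages 17 were tested, with 12 lower and 2 higher. Their median of -1.31 is the value of Cxcl2, which was not called (edgeR adjusted p = 0.193). The median was -0.92 without verapamil replicate 1 and -1.59 without verapamil replicate 3. Cxcl10, an interferon-induced chemokine, fell by 3.78 (SE 0.285, edgeR adjusted p = 0.000694), and Art3 overlaps 5.91% of its exon bases. Tnf had 1.73 ± 0.472 CPM with verapamil and 3.62 ± 0.596 CPM in controls (log2 -1.06, SE 0.269, adjusted p = 0.0336), and missed the threshold once verapamil replicate 1 or 2 was left out (adjusted p = 0.118 and 0.121). Il10 fell by 2.73, with 0.135 CPM with verapamil and 0.920 CPM in controls (adjusted p = 0.0143), and missed the threshold without verapamil replicate 1 or 3 (0.066 and 0.0507). Ccl3, a chemokine of inflamed macrophages, rose to 56.7 ± 9.07 CPM with verapamil, against 20.8 ± 6.05 CPM in controls (log2 1.45, SE 0.225, adjusted p = 0.00658). Nos2 was at 0.534 CPM with verapamil and 0.175 CPM in controls, and its call (adjusted p = 0.0398) did not hold with verapamil replicate 1, control replicate 1 or control replicate 3 left out (adjusted p = 0.0792, 0.102 and 0.077), with no filter on low counts (0.0689) and with DESeq2 (0.168).

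Other pattern recognition receptors were higher for 3 of 14 and lower for 4. Clec4e, which encodes the lectin Mincle, had 45.7 ± 4.24 CPM with verapamil and 9.31 ± 1.21 CPM in controls (log2 2.29, SE 0.152, edgeR adjusted p = 0.000543). Clec7a, which encodes the beta-glucan receptor Dectin-1, rose by 0.81 (SE 0.0957, adjusted p = 0.00255). Zbp1 and Dhx58, sensors of viral nucleic acid that interferon induces, were lower, with log2 fold changes of -2.33 and -1.28 (adjusted p = 0.00102 for each), and Dhx58os overlaps 4.31% of the exon bases of Dhx58. In this list the count of lower genes was 7 with the length trend removed, 6 with upper quartile factors or without control replicate 1, and 2 without any 1 verapamil library. Without control replicate 3 the counts were 5 higher and 5 lower.

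**Figure D4:**
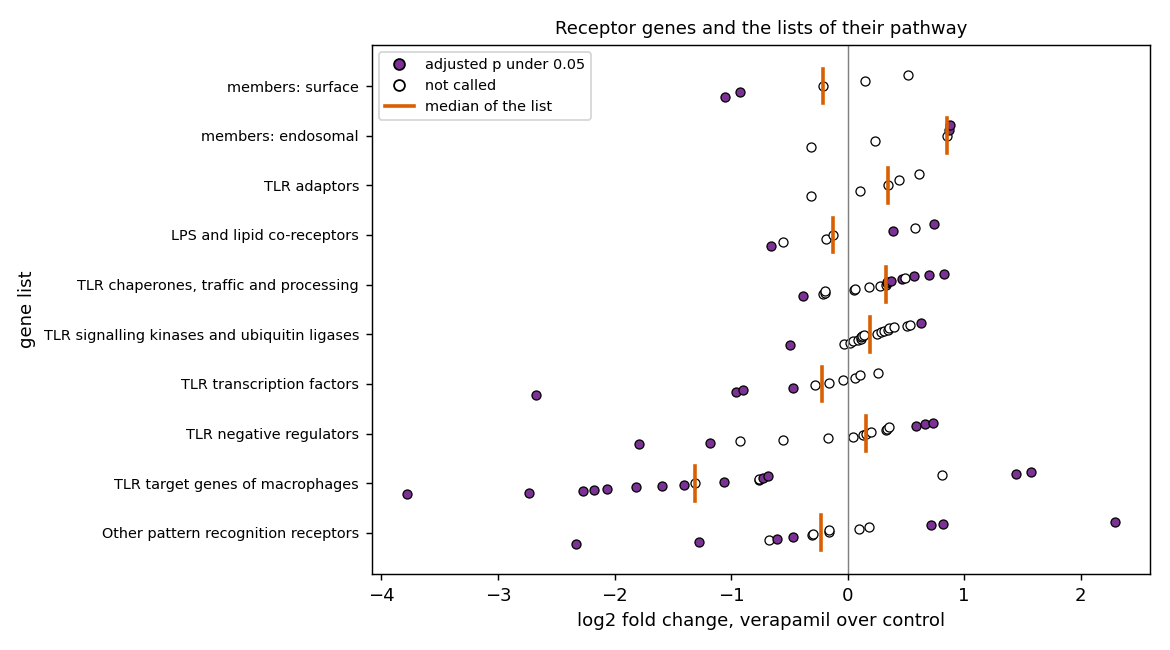
Log2 fold change, verapamil over control (x axis), of each tested gene in the receptor classes and in 8 lists of their pathway (y axis), filled at an adjusted p under 0.05, with a line at the median of each list. The macrophage target genes lie furthest to the left, with a median of -1.31 (-1.59 to -0.92 over the left-out libraries). The endosomal receptors have a median of 0.86 with all 5 libraries and 0.22 without control replicate 1.

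Markers of other cells changed beside these genes. Macrophage markers fell for 9 of 12 genes and rose for 1, with a summed level of 5945 to 6127 CPM in verapamil libraries and 8904 to 9962 CPM in controls. Stromal markers fell for all 7 tested of 8, with sums of 511 to 539 CPM in verapamil libraries and 1280 to 1454 CPM in controls. For conventional dendritic cells all 3 tested of 8 fell (4.75 to 5.80 CPM with verapamil, 21.8 to 29.8 CPM in controls). These were H2-Aa, H2-Ab1 and Zbtb46, and most of the sum came from H2-Aa and H2-Ab1. Of the untested, Clec9a had 5, 4 and 9 counts in verapamil libraries and 4 and 3 in controls. Xcr1 had 2, 4 and 7 against 14 and 3, and Flt3 and Ccr7 had at most 1 count in a library. Of plasmacytoid dendritic cell markers 0 of 2 tested were called, with sums of 151 to 167 CPM in verapamil libraries and 199 to 269 CPM in controls, nearly all from Bst2 and Tcf4. Their defining gene Siglech had 0, 0 and 3 counts in verapamil libraries and 2 and 0 in controls. Among B cell markers Cd22 rose, and sums of 111 to 114 CPM in verapamil libraries and 63.5 to 69.3 CPM in controls came nearly all from it. Cd79b had 6, 1 and 4 counts in verapamil libraries and 14 and 13 in controls. It was not called (log2 -1.66, edgeR adjusted p = 0.0768), and Cd79a had 1 or 2 counts in each library. Neutrophil markers summed to 2.75 to 3.25 CPM in verapamil libraries and 3.93 to 8.31 CPM in controls, with 1 of 2 tested lower. T and NK cell markers stayed below 0.73 CPM in each library, with the 1 tested lower. The part of these cells in the receptor values was not tested.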

How the data were processed

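As deposited by the authors, the values are estimated counts for each gene and library, with fractions and with totals that differ between libraries, so unnormalized. Per the submitters' processing notes the build is GRCm38 (mm10). The sources used here give no aligner, counter, annotation or strand setting. Labels describe 6 libraries, and control replicate 2 was not analysed here, so the planned test of 3 against 3 became 3 against 2. RNA was extracted with Trizol and made into libraries from 1.3 ug with a SMARTER kit, per the labels' protocols, which run to day 7 while the titles give day 5.

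Counts were rounded, filtered (edgeR 4.0.16, minimum count 10, minimum total 15) and scaled by TMM, and tested in R 4.3.3 by edgeR's quasi-likelihood test with the group as the only term, on 3 residual degrees of freedom. P-values were adjusted by Benjamini-Hochberg over all 12619 genes and called under 0.05. The square root of each F statistic, set under the log2 fold change, gave its standard error. Self-tests on simulated counts were run first. Exon lengths and overlaps came from GENCODE M21 (GRCm38), and positions from RefSeq GRCm38.p6. Alternatives were RLE and upper quartile factors, 2 other filters, DESeq2 1.42.0, removal of the length trend, the replicate block and leaving out each library.

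Members and lists were chosen with earlier results of these data known. Named from each pathway list were the 2 largest rises and 2 largest falls among called genes, plus Ly96, Cd180, Ly86, Myd88, Ticam1, Unc93b1, Irf7 and Tnf. Likeness is given for the 2 genes with the smallest p in each class. Each library was counted as 1 sample. Differences between libraries of a group exceeded counting noise in every pair (variance 1.99 to 24.2 times that of counting). That check cannot tell separate mice or cultures from separate preparations of the same RNA, so independence of the libraries was not tested.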

Additional observations from a re-analysis of the deposited data

How the results depend on the processing

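Of 120 refits of the single receptor genes, 104 kept direction and side of the threshold, 11 gained and 4 lost a call, and 1 reversed (Tlr8, at -0.10 without control replicate 1, and at 0.69 without control replicate 3). The count of changed genes among all tested ranged from 1460 to 7808 over the left-out libraries, the endosomal count from 0 to 4 and the surface count from 2 to 3. Without control replicate 1 or 3 only 1 control remains, assumed to vary like the verapamil libraries. The difference in surface share, verapamil minus control, was -14.4 percentage points, and from -18.6 to -10.2 over the left-out libraries. Other settings gave 2964 to 4307 changed genes. The median of all genes was -0.13 with upper quartile factors, against -0.01 as reported. Of the called genes 28.2% were then higher, against 39.4% as reported, and 46.7% with DESeq2. The labels share replicate numbers but name nothing that the numbers mark, and only 2 pairs exist. Correlations of deviations were 0.38 and 0.02 for these pairs, and 0.39 for verapamil replicate 2 with control replicate 3. With 2 controls, their deviations mirror each other, so these values cannot show whether the numbers mark pairs. The replicate block was fitted on the 4 libraries of replicates 1 and 3. It called 3306 genes, with 3 in each class, Tlr4 (0.53, adjusted p = 0.0359) and Tlr9 (1.03, adjusted p = 8.34e-05) joining. That fit leaves few residual degrees of freedom, so its p-values rest mainly on variance shared across genes. Standard errors of the receptor genes were 0.20 to 0.23 in it, against 0.11 to 0.47 as reported. The calls it added are therefore weak evidence. With 2 controls that differ widely for Tlr8 and Tlr9, the 95% intervals of these genes include 0, so a change of either direction could not be told at this number of libraries.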
